A study of Homo sapiens with 18 samples.

Results

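Before a cell copies its DNA it licenses the origins of replication. The origin recognition complex, of which ORC1 is a subunit, recruits CDC6 and CDT1, and these load the ring-shaped helicase made of the proteins MCM2 to MCM7 onto DNA. PCNA, the sliding clamp, later holds the DNA polymerases on the template. Many of these genes are textbook targets of E2F transcription factors and are transcribed most strongly as cells pass from G1 into S phase. The genes described here are those 10 (MCM2, MCM3, MCM4, MCM5, MCM6, MCM7, CDC6, CDT1, ORC1 and PCNA), chosen by name, together with the m6A peaks that overlap their exons on the same strand. All 10 are among the 61267 genes counted by RNA-seq, and 18 of the 39708 deposited peaks lie on their exons.

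The study compared LoVo cells, an established human colorectal cancer line, that carry wild-type METTL3 (METTL3 WT) or METTL3 K513R, to learn what methylation of METTL3 at that lysine does. METTL3 is the methyltransferase that places N6-methyladenosine (m6A) on mRNA. Each genotype had 3 RNA-seq libraries from rRNA-depleted total RNA and 3 pairs of MeRIP-seq libraries, where an anti-m6A antibody captures methylated fragments of poly(A) RNA (IP) and a part set aside beforehand serves as input. No treatment or time is named. The making of the K513R cells, and whether they are 1 clone, is not given in the sources used here, and a gene count does not carry the K513R change, so it cannot check the labels. Nothing states that libraries of a group are separate cultures, and p-values then reflect only the variation among them, which may be technical.

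In GRCh38 the genes span 127598410 to 127622436 on chromosome 3 (MCM2, plus strand), 52264014 to 52284881 on 6 (MCM3, minus), 47960185 to 47978160 on 8 (MCM4, plus), 35400134 to 35425431 on 22 (MCM5, plus), 135839626 to 135876443 on 2 (MCM6, minus) and 100092233 to 100101940 on 7 (MCM7, minus). CDC6 spans 40287879 to 40304657 on chromosome 17 (plus), CDT1 88803789 to 88809258 on 16 (plus), ORC1 52372829 to 52404423 on 1 (minus) and PCNA 5114953 to 5126626 on 20 (minus).

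RNA-seq libraries held 47105235 to 53795212 gene counts. Counts inside peaks came to 11076729 to 12491969 per WT IP library and 5905811 to 9198650 per K513R IP library, and to 5025027 to 6200264 and 2625446 to 4847236 per input library, so K513R peak values rest on fewer counts. Genes named RN7SL took 1.78 to 2.81% of the RNA-seq counts in WT and 17.5 to 18.8% in K513R, and mitochondrially encoded genes 3.38 to 4.82% and 0.237 to 0.353%. Of 12 markers of colorectal epithelium, KRT8, KRT18, KRT19, EPCAM and CDH1 were well above 5 CPM (counts scaled to library size) in both genotypes, while CDX1 was under 0.1 CPM in all 6 libraries and CEACAM5 and CDH17 were under 0.1 CPM in WT. The summed level of the epithelial markers ran from 11000 to 16516 CPM in WT and from 2221 to 2659 CPM in K513R, and most of it came from KRT8 (8821 and 1915 CPM on average), KRT18 and KRT19. Of the 9 epithelial markers tested 6 were lower, 2 were higher (CDH1, 84.4 and 173.6 CPM, and LGALS4) and 1 (KRT20) did not pass. LGALS4 (0.0204 and 0.608 CPM on average in WT and K513R) and KRT20 (0.192 and 0.411 CPM) were very low in both genotypes. CDX2 (10.6 and 2.32 CPM) and VIL1 (5.35 and 2.11 CPM) were among the markers that were lower. The summed level of 5 fibroblast markers overlapped (30.3 to 44.9 and 33.5 to 46.7 CPM), that of 4 endothelial markers was 1.08 to 1.54 and 3.36 to 4.2 CPM, and that of 7 blood markers 8.03 to 9.73 and 15.4 to 16.5 CPM. The part of these differences in the results below was not tested.

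All 10 licensing genes were lower in K513R than in WT by RNA-seq, by 1.45-fold (MCM5) to 5.07-fold (CDC6), and in none of them did the 3 K513R libraries overlap the 3 WT libraries. Their median log2 fold change was -1.21, beside 0.13 over all 30377 genes tested. The median was -0.37 over the genes tested that also had input counts inside peaks and entered the joint model below. Changes were wide across this table, where 36.9% of all genes were lower and 41.5% higher (78.3% in either direction, edgeR quasi-likelihood, Benjamini-Hochberg adjusted p under 0.05) and 37.8% had every K513R library below every WT library. The poly(A) inputs described below did not show the same fall. Of 6 licensing genes tested there 2 were lower and 1 higher, with a median log2 fold change of -0.04. In bulk RNA, fewer cells in the phase that expresses these genes and less RNA per cell cannot be told apart. Nor can either be told apart here from the difference in makeup of the RNA-seq libraries given above, whose part was not tested.

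**Figure D1:**
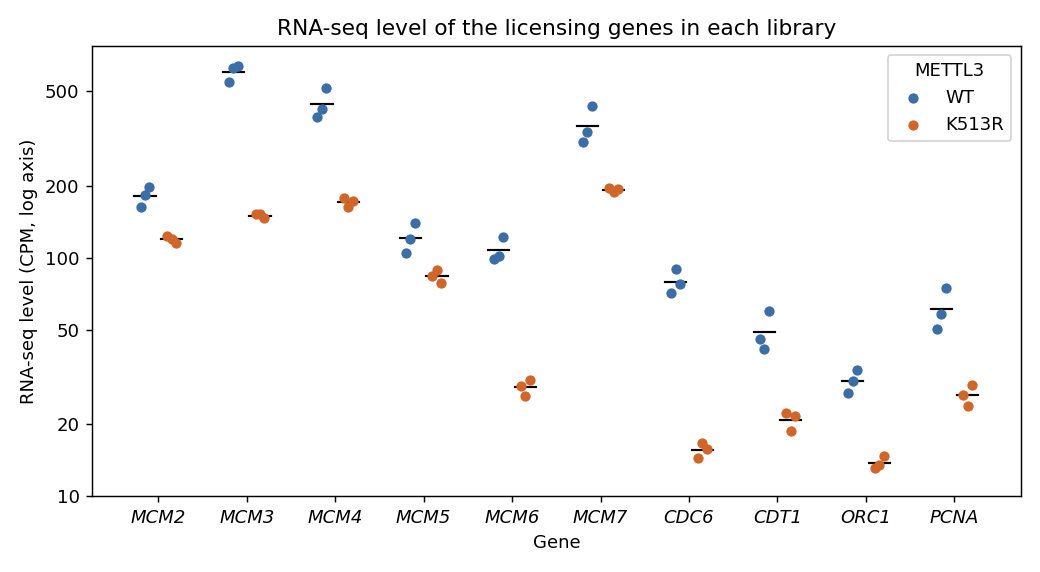
RNA-seq level of the 10 licensing genes in CPM on a log axis, 1 point per library (3 WT, 3 K513R) with a black line at the mean of each group. Every K513R point lies below every WT point of the same gene, with the widest gap for CDC6 (79.4 and 15.7 CPM on average).

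The helicase subunits split by the size of their fall. MCM3 had 545.7, 627.4 and 637.9 CPM in the 3 WT libraries and 152.2, 152.1 and 147.1 CPM in the K513R libraries. Its log2 fold change was -2.004 ± 0.11 (SE; edgeR adjusted p = 2.43e-11). The K513R libraries lay close together, far below the lowest WT library.

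MCM6 had 98.98, 102.2 and 122.5 CPM in WT and 28.92, 26.39 and 30.65 CPM in K513R, with a log2 change of -1.91 ± 0.12 (edgeR adjusted p = 6.77e-11). MCM4, which forms the catalytic core of the ring with MCM6 and MCM7, had 391.5, 422.9 and 516.7 CPM in WT and 177.8, 162.9 and 172.6 CPM in K513R, with a log2 change of -1.37 ± 0.12 (edgeR adjusted p = 9.17e-09). MCM7 had 305.6, 337.8 and 433.3 CPM in WT and 195.5, 188.9 and 194.6 CPM in K513R, with a log2 change of -0.89 ± 0.13 (edgeR adjusted p = 3.97e-06). WT replicate 3 was the highest library in 9 of the 10 licensing genes (all but CDC6), and all 10 were still called lower without it.

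MCM2 and MCM5, which flank the gate through which the ring opens onto DNA, fell least. MCM2 had 163.3, 184.4 and 199 CPM in WT and 123.4, 119.7 and 115.5 CPM in K513R, with a log2 change of -0.61 ± 0.11 (edgeR adjusted p = 5.39e-05). MCM5 had 105.3, 119.8 and 139.4 CPM in WT and 84.11, 89.08 and 78.53 CPM in K513R, with a log2 change of -0.53 ± 0.12 (edgeR adjusted p = 0.000413). Both values depend on scaling, since upper-quartile factors, which raise the median of all genes to 0.39, gave -0.34 for MCM2 and -0.27 for MCM5, still past the threshold. Whether counting used strand is not given, and 23.6% of the exonic length of MCM2 is shared with the opposite-strand gene ENSG00000285600 (14.0 ± 4.23 CPM in WT and 15.4 ± 1.90 CPM in K513R, mean ± SD, n = 3). MCM7 shares 8.49% of its exonic length with AP4M1 and MIR93. AP4M1 stood at 19.3 ± 3.09 and 24.0 ± 1.94 CPM, and no other licensing gene shares exonic bases with another gene.

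The makeup of the helicase mRNAs, a measure that needs no scaling between libraries, was also compared. Of all counts in MCM2 to MCM7, MCM3 took 33.9, 35.0 and 31.1% in WT and 20.0, 20.6 and 19.9% in K513R. MCM6 went from 5.94 ± 0.229% to 3.84 ± 0.291% (mean ± SD, n = 3 each), and MCM4 from 24.4 ± 0.828% to 22.9 ± 0.753%. The shares of MCM2 (10.0 ± 0.295% and 16.01 ± 0.323%), MCM5 (6.67 ± 0.132% and 11.2 ± 0.734%) and MCM7 (19.7 ± 1.30% and 25.9 ± 0.417%) were larger in K513R. In each of the 6 subunits the genotypes did not overlap, and an exact two-sided permutation test gave p = 0.1, the smallest value that 3 libraries against 3 allow. The shares are parts of one total in each library, so the 6 results are not independent. A larger share is not a higher level, since MCM2, MCM5 and MCM7 fell in CPM.

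**Figure D2:**
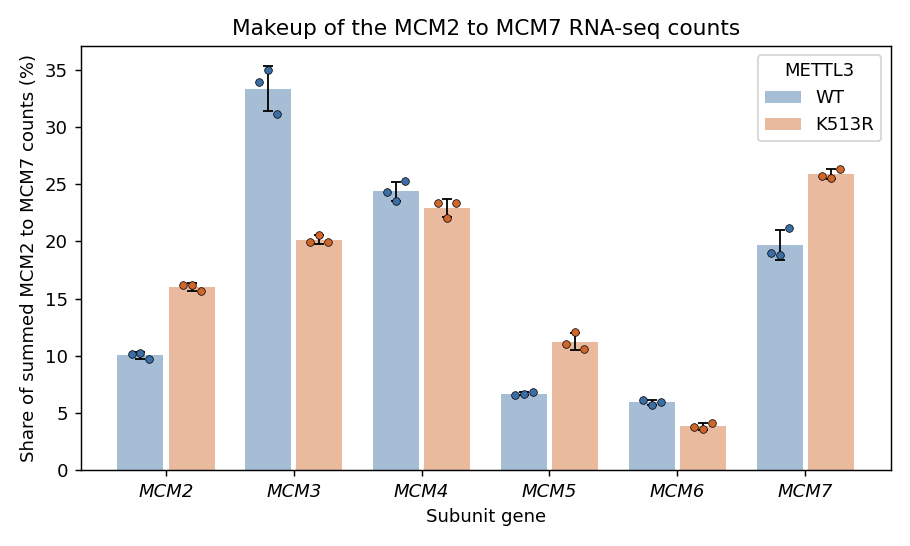
Share of each subunit gene in the summed RNA-seq counts of MCM2 to MCM7, in percent, as bars at the mean of 3 libraries with the SD and 1 point per library. MCM3 has the largest share in WT (33.3%) and 20.2% in K513R, where MCM7 (25.9%) and MCM4 (22.9%) stand above it.

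The loading factors fell as well. CDC6, the ATPase that completes the loader with the origin recognition complex, had 70.9, 89.7 and 77.72 CPM in WT and 14.48, 16.65 and 15.85 CPM in K513R. Its log2 fold change of -2.34 ± 0.12 (edgeR adjusted p = 6.70e-12) was the largest fall of the 10 genes. CDT1, which escorts the MCM ring to the origin, had 45.72, 41.63 and 59.79 CPM in WT and 22.3, 18.71 and 21.69 CPM in K513R, with a log2 change of -1.23 ± 0.13 (edgeR adjusted p = 1.29e-07).

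ORC1, the largest subunit of the origin recognition complex, had 27.18, 30.3 and 33.76 CPM in WT and 13.1, 13.51 and 14.74 CPM in K513R, with a log2 change of -1.14 ± 0.11 (edgeR adjusted p = 5.86e-08). PCNA had 50.39, 58.23 and 74.73 CPM in WT and 26.63, 24.02 and 29.27 CPM in K513R, with a log2 change of -1.20 ± 0.13 (edgeR adjusted p = 2.38e-07). For ORC1, CDT1 and PCNA the fall was close to the median of the 10.

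Per kilobase of exon, MCM3 was the highest of the genes in WT at 165.6 ± 13.9 CPM, followed by MCM7 at 72.4 ± 13.4. MCM4 (45.04 ± 6.61), PCNA (43.6 ± 8.86) and MCM2 (38.6 ± 3.80) did not differ beyond their spread, nor did CDT1 (17.8 ± 3.45), MCM5 (16.7 ± 2.35) and CDC6 (14.96 ± 1.79), with MCM6 (26.1 ± 3.09) between these sets and ORC1 lowest (9.75 ± 1.06). In K513R the levels per kilobase were 41.3 ± 0.792 for MCM3 and 38.9 ± 0.720 for MCM7, and the lowest was CDC6 at 2.95 ± 0.206. CDC6 thus stood above ORC1 in WT and below it (4.42 ± 0.274) in K513R. Exonic length here is that of all annotated exons merged, which lowers the value of genes with long alternative exons.

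E2F matches in the promoters are shown because many of these genes are textbook E2F targets and the factor E2F4 is named in the series title. A part of E2F factors in the K513R change was not tested. RefSeq windows (GRCh38.p14, 250 bases before to 50 after a start) were available for 8 of the 10 genes (all but MCM4 and MCM5), as 11 windows. The letters searched were TTTCCCGC, TTTGGCGC, TTTCGCGC and TTTGCCGC on both strands, which can overlap each other. At least 1 match was found in 7 of the 8 genes and 7 of the 11 windows, against 3.315% of all 35116 windows and 5.18% of the 11576 windows whose genes averaged 10 CPM or more. These shares are bound up with the choice of genes known as E2F targets and give no test of the K513R change. The match nearest the start is in capitals within 30 bases, read 5′ to 3′ on the strand of the gene.
MCM2: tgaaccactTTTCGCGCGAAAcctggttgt
MCM3: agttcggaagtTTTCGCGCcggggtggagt
MCM6: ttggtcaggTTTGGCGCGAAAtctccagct
MCM7: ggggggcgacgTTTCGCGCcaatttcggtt
CDC6: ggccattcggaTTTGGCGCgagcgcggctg
CDT1: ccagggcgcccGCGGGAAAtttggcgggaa
PCNA: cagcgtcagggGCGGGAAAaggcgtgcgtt
These lie at chr3:127598404-127598433 (MCM2, plus strand), chr6:52284728-52284757 (MCM3, minus), chr2:135876513-135876542 (MCM6, minus), chr7:100101388-100101417 (MCM7, minus), chr17:40287875-40287904 (CDC6, plus), chr16:88803743-88803772 (CDT1, plus) and chr20:5126663-5126692 (PCNA, minus). In MCM2 and MCM6 matches on both strands overlap, and in MCM2, MCM3, MCM7 and CDC6 the capitals lie within 15 bases of the start. MCM3, MCM6 and MCM7 hold a further separate E2F match in the same window. The CCAAT box (CCAAT) was in 9 of the 11 windows and in 34.6% of all windows, and the cell cycle homology letters TTTGAA or TTCGAA were in 1 (MCM6) and in 16.4% of all windows. The ORC1 window held none of the E2F letters searched.

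Other replication genes were read from a list of 69 in 9 groups, and in RNA-seq 51 of them were lower, 11 higher and 7 did not pass (edgeR adjusted p under 0.05, median log2 fold change -0.90), beside 36.9% lower and 41.5% higher over all genes. For groups of 3 to 5 genes such counts are too small to set against those shares. Of genes that control licensing, among them the S phase cyclin CCNA2, 11 of 12 were lower (median -1.49). Of genes that activate the loaded helicase, 11 of 13 were lower and 2 higher (median -1.07). The other subunits of the origin recognition complex had 3 of 5 lower and 2 not passing (median -0.46). Of the primase and polymerase genes 10 of 12 were lower and 2 higher, of clamp loaders and unloaders 5 of 9 were lower and 3 higher, and of clamp clients 4 of 7 were lower and 3 higher. Of the other MCM family genes 2 of 4 were lower and 1 higher, while 3 of 4 fork protection genes and 2 of 3 RPA genes, which bind single-stranded DNA, were lower and none was higher.

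The 3 largest falls of that list were in RFC1, the large subunit of the PCNA loader (128 ± 24.7 to 14.6 ± 1.34 CPM, log2 fold change -3.13), in RPA2 (38.7 ± 4.43 to 5.81 ± 0.507 CPM, -2.73) and in CCNA2 (76.7 ± 1.15 to 15 ± 0.597 CPM, -2.35). The 3 largest rises were in FEN1, the flap endonuclease that binds PCNA (73.2 ± 12.5 to 343 ± 6.09 CPM, 2.23), in CHTF8, part of an alternative clamp loader (26.8 ± 2.33 to 73.2 ± 5.28 CPM, 1.45), and in the helicase RECQL4 (41.9 ± 8.18 to 113 ± 12.7 CPM, 1.43). So genes whose proteins act on the same clamp stood on both sides. In the inputs FEN1 (1.08, edgeR adjusted p = 3.75e-07) and CHTF8 (0.70, 0.00670) were higher and RFC1 lower (-0.29, 0.0333), whereas RECQL4 (0.26, 0.468) and CCNA2 (-0.02, 0.940) did not pass and RPA2 was not among the genes tested. Of the 50 listed genes tested there 10 were lower, 4 higher and 36 did not pass (median -0.16). Over all genes tested in the inputs 13.6% were lower and 13.5% higher (median 0.01). The proliferation genes MKI67, TOP2A, CCNB1, PLK1 and AURKA were lower in 5 of 5, with a summed level of 1845 to 2938 CPM in WT and 1052 to 1157 CPM in K513R. Most of that sum came from MKI67, whose groups overlapped (2015, 1484 and 1014 CPM in WT and 834.7, 1052 and 812.5 CPM in K513R). In the inputs 2 of the 3 proliferation genes tested were lower (MKI67 -0.57, TOP2A -0.67). The part of the proliferation genes in the fall of the licensing genes was not tested.

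The MeRIP inputs gave a separate reading of the same genes in poly(A) RNA. Input counts were available inside peaks only, so each gene is read over the intervals that its peaks cover. For MCM6 this is 1 interval of 3922 bases, 8.39% of it on exons. For ORC1 it is 1 interval of 2779 bases, 19.3% of it on exons. Their input values may thus include intron reads and are not readings of exons alone. CDC6 had no peak, and MCM2, MCM5 and PCNA, with 52, 8 and 26 input counts over 6 libraries, were too low to test. Of the 6 genes tested, 2 were lower (MCM4 and MCM7), 1 was higher (MCM3) and MCM6, CDT1 and ORC1 did not pass (edgeR adjusted p under 0.05, median log2 fold change -0.04). Of all 8611 genes tested in the inputs, 13.6% were lower and 13.5% higher (27.1% either way).

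MCM3 had 99.11, 104.4 and 110.6 CPM in the WT inputs and 131.8, 144.8 and 146.7 CPM in the K513R inputs, a log2 fold change of 0.43 ± 0.10 (edgeR adjusted p = 0.00596). All K513R inputs were above all WT inputs, the opposite of the RNA-seq order. MCM4 had 82.37, 93.35 and 93.47 CPM in WT and 73.63, 59.29 and 45.72 CPM in K513R, with a log2 change of -0.57 ± 0.15 (edgeR adjusted p = 0.00925). MCM7 had 70.41, 69.63 and 75.85 CPM in WT and 49.09, 56.12 and 50.24 CPM in K513R, with a log2 change of -0.48 ± 0.12 (edgeR adjusted p = 0.00874). The groups did not overlap in either gene, but the MCM7 call was lost with library-size scaling (-0.34, adjusted p = 0.0765) and without WT replicate 3 (-0.44, adjusted p = 0.0525). The range of the adjusted p for MCM7 over 14 alternatives was 0.00677 to 0.0765.

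MCM6 had 48.4 ± 2.06 CPM in the WT inputs and 40.8 ± 4.66 in K513R (log2 fold change -0.24 ± 0.14, edgeR adjusted p = 0.209). ORC1 had 51.8 ± 5.62 and 58.5 ± 9.70 CPM (0.17 ± 0.14, edgeR adjusted p = 0.423), and CDT1 7.18 ± 0.916 and 8.35 ± 1.90 CPM (0.20 ± 0.29, edgeR adjusted p = 0.649). For ORC1 and CDT1 the groups overlapped.

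A joint edgeR model with a term for assay by genotype tested whether the genotype difference was the same in both kinds of library. The difference (input minus RNA-seq, log2) was 2.43 ± 0.16 for MCM3 (edgeR adjusted p = 1.66e-12), 1.67 ± 0.18 for MCM6 (1.47e-08), 1.43 ± 0.32 for CDT1 (0.000459), 1.31 ± 0.19 for ORC1 (1.80e-06) and 0.80 ± 0.20 for MCM4 (0.00108). For MCM7 it was 0.42 ± 0.18 and did not pass (edgeR adjusted p = 0.0552). MCM2, MCM5 and PCNA, with their few input counts, gave 0.26 ± 0.43, 0.37 ± 1.15 and 0.32 ± 0.75 and did not pass. Of all 11481 genes in this model 38.3% were called with a higher value in the inputs and 16.8% with a lower one (55.0% either way), and the median difference was 0.44. With DESeq2 and its own size factors the median was 0.07, the split was 3372 higher and 2931 lower in place of 4392 and 1928, and MCM4 no longer passed (0.43, adjusted p = 0.0778), while MCM3 (2.05), MCM6 (1.29), CDT1 (1.05) and ORC1 (0.93) did. The libraries differ in RNA selection, in fragmentation and in the part of the transcript counted. The edgeR scaling factors were also set over different genes, 30377 in RNA-seq and 8611 in the inputs. In RNA-seq the genes of this model had a median log2 fold change of -0.37, beside 0.01 over the genes tested in the inputs. These differences between the assays cannot be told apart here.

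**Figure D3:**
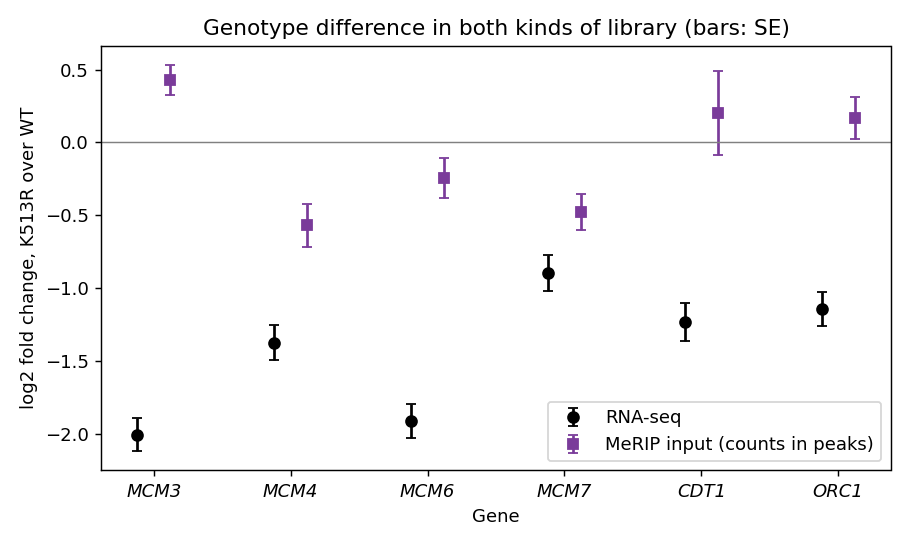
log2 fold change (K513R over WT) with its SE for the 6 genes tested both by RNA-seq (circles) and in the MeRIP inputs (squares). All circles lie below 0, from -2.004 for MCM3 to -0.89 for MCM7, whereas the squares run from -0.57 (MCM4) to 0.43 (MCM3).

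Most alike to the mean of the licensing genes, over 6 RNA-seq and 6 input libraries centred within each assay, were NAT8L, PFKP, UCK2, TKT and KRT18 (Pearson r of log2 CPM from 0.993 to 0.995, as a description). These genes fell in RNA-seq by 1.79 to 3.63 on the log2 scale and stood between -0.20 and -0.09 in the inputs. The likeness is not selective, since 22.8% of the 8508 genes compared had an r over 0.9.

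The m6A comparison asked whether IP over input differed between genotypes at each peak. The log2 IP over input printed here takes each IP with the input of the same number and divides both by their totals over tested peaks, so 0 is about the average enrichment of a peak and not a lack of it. Of the 18 peaks on licensing gene exons 13 passed the filter on low counts. Of these, 3 were lower in K513R (2 overlapping peaks of ORC1 and 1 of MCM3) and 3 were higher (all of MCM7, 2 of them the same interval called in both genotypes). Of all 27252 peaks tested, 9.61% were lower and 13.0% higher (22.6% either way, edgeR interaction term, adjusted p under 0.05). With each IP and its input held as a pair (replicate block), 4 licensing gene peaks were lower, MCM4 being the added one, and 3 higher, beside 3453 lower and 4611 higher of all peaks in place of 2620 and 3543.

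In ORC1 the peak lies in exon 6 of 17 (merged exons counted from the 5′ end), at chromosome 1, 52393517 to 52393726, minus strand, GRCh38. Its log2 IP over input was 0.91, 1.46 and 1.00 in WT and -0.21, -0.63 and -0.27 in K513R. The change was -1.50 ± 0.24 (edgeR adjusted p = 0.000539). IP counts were 650, 554 and 630 in WT and 185, 131 and 118 in K513R, while input counts were 141, 85 and 141 and 126, 103 and 67. All K513R pairs were below all WT pairs, and the wider WT peak over exons 5 and 6 (52393488 to 52396266) gave -1.31 ± 0.22 (edgeR adjusted p = 0.000753).

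In MCM3 a peak of 510 bases lies in the last exon, 84.4 to 98.4% of the way along the merged exons (chromosome 6, 52264073 to 52264582, minus strand), and was called in WT only. Its log2 IP over input was 0.68, 0.34 and 0.34 in WT and -0.92, -0.85 and -0.85 in K513R, and the groups did not overlap. The change was -1.33 ± 0.18 (edgeR adjusted p = 0.000295). In this peak the IP level went from 97.8 ± 8.63 to 53.4 ± 4.84 CPM and the input level from 71.2 ± 4.31 to 98.0 ± 6.27 CPM, so both moved, in opposite directions.

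MCM7 went the other way at its 5′ end. The peak over exons 1 and 2 of 14 (chromosome 7, 100100828 to 100101432, minus strand, called in both genotypes) had a log2 IP over input of -0.24, 0.08 and -0.41 in WT and 0.93, 0.55 and 1.08 in K513R, a change of 1.07 ± 0.23 (edgeR adjusted p = 0.00334). It covers the E2F match of MCM7 printed above, since the count table starts the gene further upstream than that RefSeq start. The second peak in exon 2 (100100082 to 100100381, called in K513R) had -0.42, -0.25 and -0.42 in WT and 0.70, 0.48 and 0.68 in K513R, a change of 1.00 ± 0.23 (edgeR adjusted p = 0.00514). In both intervals every K513R pair was above every WT pair. A short WT peak inside the second interval (100100231 to 100100352) had 77 IP counts in all and a difference of 0.09 ± 0.65 (edgeR adjusted p = 0.939).

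The peak in exon 9 of 14 of MCM4, called in WT only, was near the threshold. Its log2 IP over input was -0.58, -0.94 and -0.89 in WT and -1.40, -1.99 and -1.05 in K513R, without overlap, and the difference of -0.68 ± 0.27 missed the threshold (edgeR adjusted p = 0.0679, and 0.0150 to 0.259 over 11 alternatives). It passed with library-size scaling (-0.91), with the replicate block (-0.69, adjusted p = 0.0170) and without K513R replicate 1 (-0.74) or 3 (-0.84). The MCM6 peak over exons 16 and 17 had -0.83 ± 0.085 in WT and -0.61 ± 0.322 in K513R, a difference of 0.26 ± 0.25 (edgeR adjusted p = 0.468). Its shorter K513R form in exon 16 gave 0.29 ± 0.30 (edgeR adjusted p = 0.511).

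The peaks of MCM2 and CDT1, each in the last exon, had few counts. The MCM2 peak (155 IP counts in all) gave a difference of -0.43 ± 0.63 (edgeR adjusted p = 0.649), and its K513R form by -0.40 ± 0.66 (edgeR adjusted p = 0.693). The CDT1 peak (186 IP counts) gave -0.61 ± 0.49 (edgeR adjusted p = 0.379). The 5 peaks left out of the test had 33 to 66 IP counts each and were the second CDT1 peak, the MCM5 peak, the PCNA peak in exon 2, an MCM3 peak in exon 1 and an MCM7 peak at its annotated 5′ end.

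In the authors' deposited table the log2 difference between genotypes was -1.73 for the ORC1 peak in exon 6, -1.56 for the MCM3 peak and 0.85 and 0.78 for the MCM7 peaks, each with an FDR under the threshold. For the MCM4 peak the authors' deposited table gave -0.91 with an FDR of 0.000136, where the interaction test above did not pass. With library-size scaling in place of TMM factors the interaction test also gave -0.91 and passed (edgeR adjusted p = 0.0150). The cause of the difference was not tested. The direction was the same in the authors' table and the interaction test for these 5 peaks.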

How the data were processed

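Per the file headers, the authors deposited raw counts per gene for 6 RNA-seq libraries and raw counts per m6A peak for 12 MeRIP libraries, with a fold (ratio of IP over input) and an equal score, p-values and FDR per peak and a log2 difference between genotypes. Per the submitters' processing notes, build GRCh38 was used, with edgeR 3.12.1, deepTools, bedtools, Subread 1.5.1 (featureCounts) and Trimmomatic 0.36. Which aligner and which caller of peaks were used, and whether counting was by strand, is not given in the sources used here. Peaks are named by genotype, so overlapping peaks of both lists occur.

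Peaks were assigned to genes by an overlap of at least 1 base with exons on the same strand (bedtools 2.31.1). Input counts were summed per gene over non-overlapping peaks. Tests were run in R 4.3.3 with edgeR 4.0.16 (robust quasi-likelihood fits, filterByExpr, TMM factors within each kind of library, two-sided, Benjamini-Hochberg over all features tested) and were tested on simulated data. Of simulated log2 changes of 1 either way, 92% were recovered in RNA-seq, 95% in inputs, 42% in peaks and 33% in the assay by genotype model. For changes of 2 these were 100, 100, 99 and 83%. A peak or assay difference that did not pass may thus have been missed. Levels are CPM with these factors, except the shares and marker sums, which use library totals. For log2 IP over input 0.5 CPM was added. Alternatives used DESeq2 1.42.0 and limma 3.58.1.

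The genes, lists and tests were chosen with earlier results of these data known. The text names all 10 licensing genes, of the other replication genes the 3 largest rises and the 3 largest falls, 5 most alike genes, and for each gene the peak with the most IP counts and all peaks past the threshold. AP4M1, ENSG00000285600, the markers and the remaining peaks of the licensing genes were named beyond this rule.

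Input and IP of the same genotype and number were taken as pairs from one RNA sample, per the labels' titles and protocol. Their deviations correlated at 0.04 to 0.189, each best with its own number. The peak test was set without this block, and the blocked values are given beside it.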

Additional observations from a re-analysis of the deposited data

Results flagged for a closer look

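The genotype difference differed between the MeRIP inputs and RNA-seq, by a test of the difference itself, in 5 of the licensing genes. The input value exceeded the RNA-seq value on the log2 scale by 2.43 in MCM3, 1.67 in MCM6, 1.43 in CDT1, 1.31 in ORC1 and 0.80 in MCM4 (edgeR adjusted p from 1.66e-12 to 0.00108). Of all 11481 genes in the same model 55.0% were called, with a median difference of 0.44, so 5 of the 9 licensing genes it held is near the share of all genes. The MCM4 value did not pass with DESeq2 (0.43).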

How the results depend on the processing

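All 10 licensing genes were lower by RNA-seq under each of the 15 alternatives (10 calls without any one replicate, and none higher). In the inputs, library-size scaling left 1 licensing gene lower in place of 2, 5 other replication genes lower in place of 10, and 752 of all genes lower in place of 1169, beside 1669 higher in place of 1164. Leaving out 1 replicate gave 1 to 2 licensing genes lower (1 without WT replicate 3), 4 to 7 other replication genes higher (7 without K513R replicate 1), and 744 lower and 720 higher (both without WT replicate 2) to 1527 lower and 1369 higher of all genes (without K513R replicate 1).

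For peaks, leaving out 1 replicate gave 868 to 3337 lower and 1180 to 4172 higher of all peaks, in place of 2620 and 3543. The counts fell by over 1.5 times without WT replicate 1 (868 and 1180), 2 (972 and 1383) or 3 (891 and 1252) or K513R replicate 2 (1376 and 1893), while the licensing gene peaks stayed at 3 to 4 lower and 3 higher. Keeping only peaks above the median of the authors' fold gave 546 lower and 863 higher, and 1 lower (ORC1) and 1 higher (MCM7) licensing gene peak, since of the licensing gene peaks tested before only these and the wider MCM2 peak were kept. With library size, 3928 peaks were lower and 1813 higher. Asking for 50% of a peak on exons left 2 lower peaks and 1 higher peak. The wider ORC1 peak is 19.3% exonic and the interval over exons 1 and 2 of MCM7 is 45.5% exonic. The short WT peak of MCM7 turned to -0.14 with library size, -0.34 without WT replicate 2 and -0.13 without K513R replicate 1, and ran from -0.34 to 0.54 over the replicates left out.

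In the assay by genotype model DESeq2 gave 2931 genes lower in place of 1928 and turned MCM2 to -0.12, MCM5 to -0.0081 and PCNA to -0.061. With 1 replicate left out MCM2 ran from -0.036 (without K513R replicate 3) to 0.60, MCM5 from -6.09 (without K513R replicate 3) to 1.197 and PCNA from -0.061 (without K513R replicate 1, and -0.053 without K513R replicate 2) to 0.84, all on few input counts. MCM7 passed with library size (0.64) and without WT replicate 1 (0.50). The cause of these shifts was not tested.

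The replicate block left 11038 genes lower and 12382 higher in RNA-seq, 1016 and 974 in the inputs, and 1911 and 4345 in the assay model. Deviations of same-numbered WT and K513R libraries correlated at -0.016 to 0.094 in RNA-seq and -0.118 to 0.014 in the inputs, so numbers were not taken as pairs across genotypes. Holding input and IP as pairs changed no call of a licensing gene peak but that of MCM4 (-0.69).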
